A study of Mus musculus with 6 samples.

Results

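The proteases that cut the extracellular matrix of skin, and their inhibitors, were followed in dorsal skin that lacks the clock gene *Bmal1*. The set holds every probe set of the array whose annotated gene symbol begins with Adamts, Adamtsl or Mmp and a number, or is one of the 4 Timp genes. These are 74 of 23410 probe sets with a gene symbol, and they stand for 49 genes, namely 18 *Adamts*, 5 *Adamtsl*, 22 *Mmp* and 4 *Timp* genes. Whole dorsal skin was taken from 3 *Bmal1*+/- and 3 *Bmal1*-/- littermates on a C57BL/6J background, and the RNA of each mouse was hybridised to its own whole-transcript array, the Affymetrix Mouse Gene 1.0 ST. The labels give postnatal day 22 for all 6 mice and place every follicle in telogen, the resting phase of the hair cycle. For *Bmal1*+/- replicate 1, the only male, a further label gives day 23. The controls carry 1 mutated copy of *Bmal1* themselves, and no wild-type mice were on these arrays. The sources used here do not state the hour at which these 6 skins were collected.

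BMAL1 pairs with CLOCK to form the transcription factor that drives the circadian clock through E-boxes. Matrix metalloproteinases (MMPs) are zinc enzymes that cleave collagens, gelatin, laminins and many cell surface proteins, and they are made as inactive precursors. The ADAMTS enzymes are secreted relatives with thrombospondin repeats that cut proteoglycans such as versican and aggrecan, trim procollagens or act on microfibrils. ADAMTS-like proteins share the repeats but lack the catalytic domain. The tissue inhibitors of metalloproteinases (TIMPs) bind the active site of these enzymes. In skin, matrix proteolysis is known for its part in wound repair, in the remodelling that accompanies hair follicle growth and regression, and in the release of growth factors.

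Each value is the linear intensity of a probe set, with a median of 219.0 to 235.5 on the 6 arrays. They were tested as log2(intensity + 16) with limma over all 23410 probe sets, two-sided and with Benjamini-Hochberg adjustment, and each log2 fold change is *Bmal1*-/- minus *Bmal1*+/-. Because of the offset of 16, the change of a dim gene is understated. The targeted gene, listed as *Arntl*, had intensities of 325 to 365 in *Bmal1*+/- and 569 to 664 in *Bmal1*-/- skin. Where its probes lie relative to the mutated part is not stated, and this level therefore does not check the labels. Markers of skin were present, with *Krt14*, a keratin of basal keratinocytes, at 5043 to 6345 and *Col1a1*, a chain of type I collagen, between 15290.0 and 18830.0 over the 6 mice. None of 11 lists of markers, for fibroblasts, keratinocytes, macrophages, mast cells, neutrophils, endothelium, pericytes, fat, muscle, growing hair shaft and proliferation, held a gene past the threshold. Single mice still differed, as the summed proliferation markers were 608.5 in *Bmal1*-/- replicate 3 and 1068 to 1352 in the other mice.

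With an adjusted p under 0.05 from limma, 1 of the 74 probe sets was higher in *Bmal1*-/- skin and 0 were lower. The higher one belongs to *Adamts4*, which encodes an aggrecanase. Over all tested probe sets 0.0982% were higher and 0.132% were lower by the same rule. In whole skin, a change in the number of cells of a type and a change in RNA per cell cannot be told apart. With an unadjusted p under 0.001 from limma, *Adamts4* was again the only one of the 74, against 0.252% of all probe sets higher and 0.397% lower. The study set this cutoff for a different test, Cyber-T, so these counts are not those of its own rule. At an unadjusted p under 0.05 there were 4 higher (5.41%, against 4.17% of all probe sets) and 9 lower (12.2%, against 4.6%), together 17.6% of the 74 against 8.77%. For 13 of the 74 probe sets, or 17.6%, the values of the genotypes did not overlap, against 14.7% of all tested probe sets. Of these 13, 5 were higher in *Bmal1*-/- skin (6.76%, background 6.99%) and 8 were lower (10.8%, background 7.68%). Counted by gene, 11 of the 49 (22.4%) did not overlap, 4 of them higher (8.16%) and 7 lower (14.3%). The same share over all genes, with 1 probe set each, was not counted. The log2 fold changes of the 74 probe sets were above 0 for 30 (40.5%, background 54.7%) and below 0 for 44 (59.5%, background 45.3%), and 16 of the 74 belong to *Adamts3*. A change of over 0.5 in either direction was seen for 2, those of *Adamts4* and *Adamts20* (2.7%, background 0.94%), and one of under 0.25 for 62 (83.8%, background 92.1%). Here and below, the brightest of a gene's probe sets stands for the gene. The log2 fold changes of the 49 genes ran from -0.59 to 0.84 with a median of -0.0017, and the median over all genes was 0.016. Of the 49, 24 were above 0 and 25 below. For 37 of the 49 genes the 95% interval of the log2 fold change lay within 0.5 of 0 on both sides. Levels of different genes cannot be set against each other, because each probe set has its own response. For 3 genes, *Mmp1a*, *Mmp1b* and *Mmp8*, the mean intensity was under 64, and only *Mmp1b* had values below the offset.

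**Figure D1:**
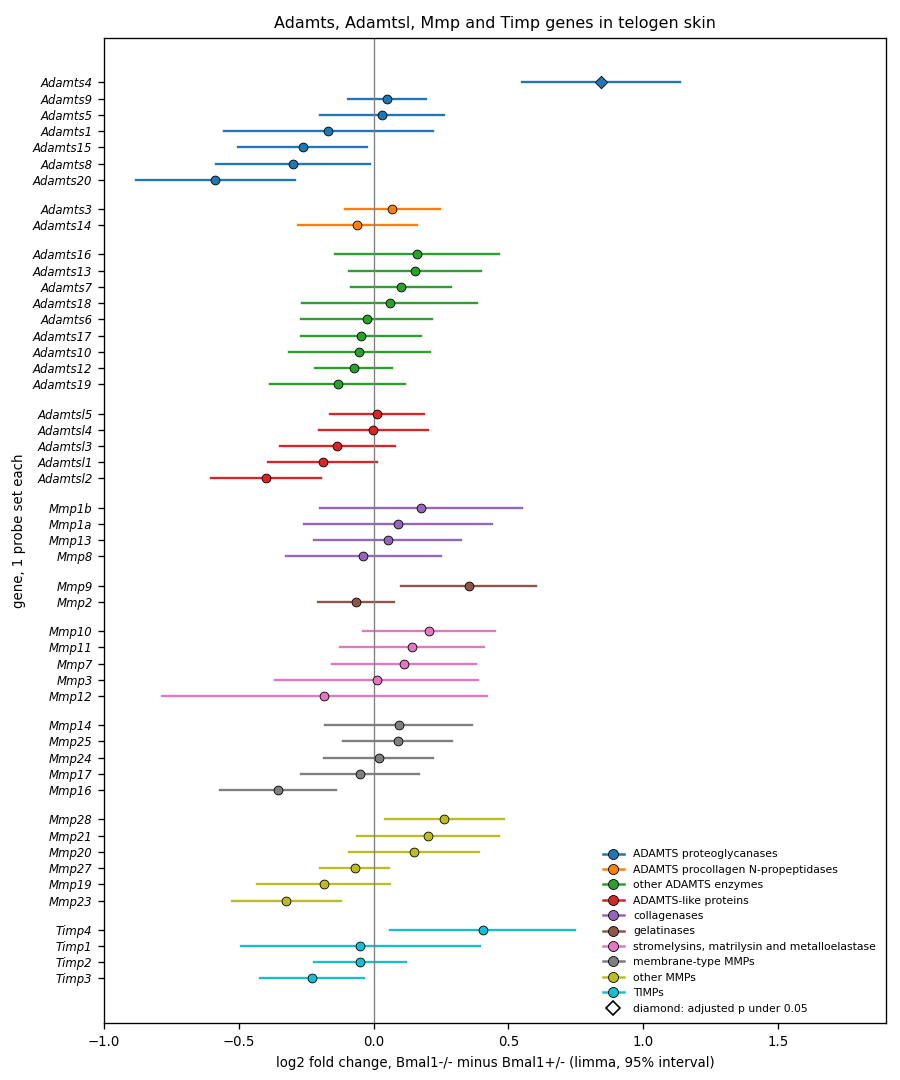
Log2 fold change of each of the 49 genes (points, horizontal axis, *Bmal1*-/- minus *Bmal1*+/-) with its 95% interval from limma (lines), grouped by role. *Adamts4*, at 0.84 and drawn as a diamond, is the only gene past an adjusted p of 0.05, and *Adamts20*, at -0.59, lies farthest below 0.

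*Adamts4* (probe set 10351551) was the member that rose in the absence of *Bmal1*. The 3 *Bmal1*+/- mice had intensities of 112, 77.4 and 98.2, and the 3 *Bmal1*-/- mice of 165, 203 and 182. Every *Bmal1*-/- value was above every *Bmal1*+/- value, and the ranges left a gap between 112 and 165. The means were 95.7 ± 17.3 and 183 ± 19.3 (SD, n = 3 mice each), a ratio of 1.92. The log2 fold change was 0.84 (SE 0.13, 95% interval 0.55 to 1.14, adjusted p = 0.043 from limma). An exact permutation test of 3 mice against 3 cannot give a p below 0.1. The call was lost when any one of *Bmal1*+/- replicates 2 and 3 or *Bmal1*-/- replicates 1, 2 and 3 was left out. Adjusted p values were then 0.083 to 0.14 from limma, with log2 fold changes of 0.72 to 0.91. A fit without 1 array also has fewer residual degrees of freedom, and what raised these p values was not tested. Without *Bmal1*+/- replicate 1, the male, the log2 fold change was 0.95 and the adjusted p 0.043. Markers of endothelium, with 5 of 5 genes above 0, had a median log2 fold change of 0.17 and a summed intensity of 3415 to 3711 in *Bmal1*+/- and 3556 to 4666 in *Bmal1*-/- skin. Markers of pericytes and smooth muscle, with 2 of 6 above 0, had a median of -0.042. Their part in the level of *Adamts4* was not tested.

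**Figure D2:**
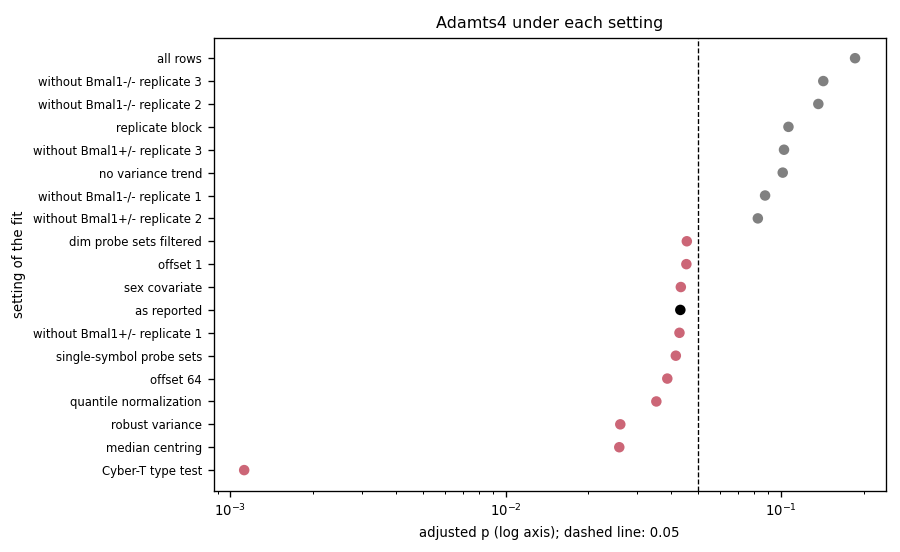
Adjusted p of *Adamts4* (horizontal axis, logarithmic) under the reported fit (black) and each of 18 other settings (red where under 0.05, grey where not), with the threshold of 0.05 as a dashed line. The gene was past the threshold under 10 of the 18 settings and missed it under 8, with adjusted p from 0.0011 to 0.19.

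The other 6 ADAMTS proteoglycanases did not pass the test, and they lay on both sides of 0. *Adamts20* (probe set 10431749), the gene mutated in belted mice, whose enzyme processes versican and is needed for melanoblasts to colonise the trunk skin, had the most negative value of all 49 genes. *Bmal1*+/- mice had intensities of 369, 518 and 374, and *Bmal1*-/- mice of 304, 250.1 and 262. All 3 *Bmal1*-/- values lay below all 3 *Bmal1*+/- values, while *Bmal1*+/- replicate 2 stood above its littermates. The log2 fold change was -0.59 (SE 0.13, 95% interval -0.88 to -0.29, adjusted p = 0.18 from limma). Without *Bmal1*+/- replicate 2 it was -0.43, and a test with Bayesian variances in the manner of Cyber-T, the program of the study's methods, gave an adjusted p of 0.0087.

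The windows from 250 bases before to 50 bases after the annotated RefSeq start (GRCm38.p6) were searched for the letters through which the clock acts, and the following window of *Adamts20*, chr15:94404301-94404600 on the minus strand, is shown because the gene stood farthest below 0. Capitals mark a match to the E'-box (CACGTT, here on the reverse strand as AACGTG), 214 bases before the start.
Adamts20: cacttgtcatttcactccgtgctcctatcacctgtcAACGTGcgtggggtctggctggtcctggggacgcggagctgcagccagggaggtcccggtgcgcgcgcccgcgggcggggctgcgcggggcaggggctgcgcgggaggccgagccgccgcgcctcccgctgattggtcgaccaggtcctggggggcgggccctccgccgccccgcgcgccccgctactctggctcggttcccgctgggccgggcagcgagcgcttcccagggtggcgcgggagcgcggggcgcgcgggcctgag
Windows were given for 34 of the 49 genes, 37 windows in all, and *Adamts4* was not among them. An E'-box stood in 2 of the 37, those of *Adamts20* and *Adamts17*, or 5.41% against 4.68% of 32851 promoter windows of 300 bases. The E-box (CACGTG) stood in 2, those of *Adamts17* and *Mmp7*, or 5.41% against 7.15%. The match of *Mmp7* stood in only 1 of its 2 windows. D-box letters (TTATGTAA, TTACGTAA or TTATATAA, of which the last overlaps a TATA box) stood in 2, those of *Mmp12* and *Mmp1b*, or 5.41% against 1.59%. Both matches were to TTATATAA, and that of *Mmp12* stood in only 1 of its 2 windows. The core of the RRE, the element bound by REV-ERB and ROR receptors (TAGGTCA or TGGGTCA), stood in 4, those of *Adamts12*, *Adamtsl5*, *Mmp10* and *Mmp28*, or 10.8% against 6.45%. Both strands were read. A match describes letters in this window and does not show binding.

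*Adamts8* and *Adamts15*, neighbours on chromosome 9 with no protein-coding gene between them, both had lower values in each *Bmal1*-/- mouse. *Adamts8*, an enzyme with weak aggrecanase activity, had intensities of 108.0, 113 and 130.0 in *Bmal1*+/- mice and 76.3, 93.7 and 107.8 in *Bmal1*-/- mice. The ranges of *Adamts8* almost touched, and its log2 fold change was -0.30 (SE 0.13, adjusted p = 0.56 from limma), or -0.19 without *Bmal1*-/- replicate 1. *Adamts15*, a versican-cleaving enzyme, had 266, 212 and 218 in *Bmal1*+/- mice and 202, 195 and 173 in *Bmal1*-/- mice. The highest value was that of the male, and the log2 fold change was -0.26 (SE 0.11, adjusted p = 0.51 from limma), or -0.17 without that mouse. *Adamts1* and *Adamts5*, also direct neighbours, on chromosome 16, showed no such separation. *Adamts1*, an enzyme first known as induced by inflammation, had 1293, 1308 and 959 in *Bmal1*+/- and 1390.1, 956 and 857 in *Bmal1*-/- mice. Each genotype thus held both high and low mice, and the log2 fold change of *Adamts1* was -0.17 (SE 0.17, 95% interval -0.56 to 0.22, adjusted p = 0.82 from limma). Leaving out 1 array gave -0.37 (without *Bmal1*-/- replicate 1) to -0.027 (without *Bmal1*-/- replicate 3). *Adamts5*, the other main aggrecanase, had 793, 742 and 591 in *Bmal1*+/- and 752, 682 and 725 in *Bmal1*-/- mice, with a log2 fold change of 0.031 (SE 0.10, 95% interval -0.20 to 0.26, adjusted p = 0.95 from limma). The difference between the changes of *Adamts4* and *Adamts5* was not tested.

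**Figure D3:**
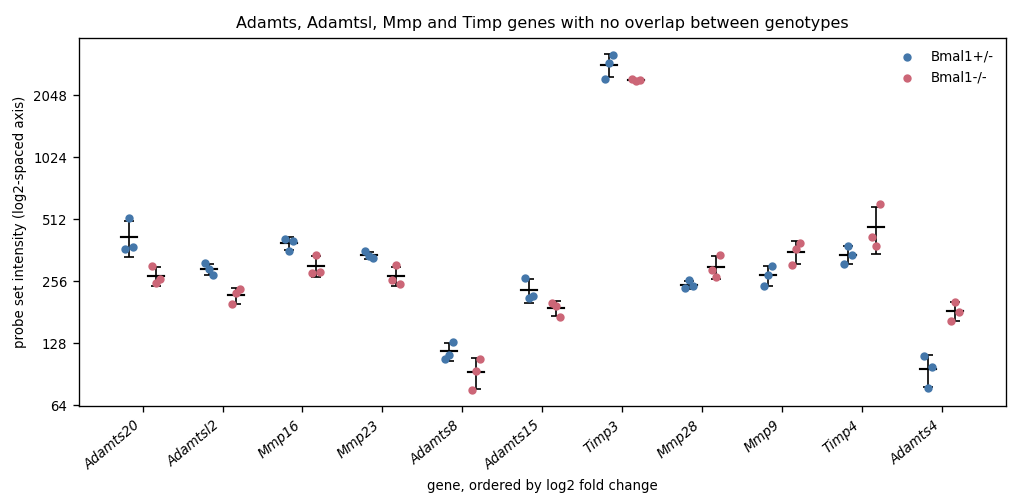
Probe set intensity (vertical axis, log2-spaced) in each mouse (points) of the 11 genes whose genotypes did not overlap, black lines marking each genotype's mean and SD (n = 3). The gap between genotypes is wide for *Adamts4*, at 112 against 165, and narrow for *Timp3*, at 2474 against 2473.

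Of the 5 ADAMTS-like genes none passed the test, and 4 had log2 fold changes below 0. *Adamtsl2* (probe set 10470392), whose product binds fibrillin microfibrils and latent TGF-beta binding protein, had intensities of 313, 293 and 275 in *Bmal1*+/- mice and 198, 224 and 236 in *Bmal1*-/- mice. The genotypes did not overlap, and the spread within each was small. The means were 294 ± 18.9 and 219 ± 19.6 (SD, n = 3 each). On the log2 scale the change was -0.40 (SE 0.091, 95% interval -0.60 to -0.19), with an adjusted p of 0.19 from limma. With the Cyber-T type test its adjusted p was 0.029. *Adamtsl1* had 578, 568 and 460 in *Bmal1*+/- mice and 464, 467 and 465 in *Bmal1*-/- mice, which gives -0.19 on the log2 scale (SE 0.090, with an adjusted p of 0.59 from limma). *Bmal1*+/- replicate 3 lay at the level of the *Bmal1*-/- mice. *Adamtsl3*, *Adamtsl4* and *Adamtsl5* had log2 fold changes of -0.14 to 0.013. Fibroblast markers, with 5 of 6 genes below 0 and a median of -0.14, had summed intensities of 67070.0 to 74250.0 in *Bmal1*+/- and of 61790.0 to 69150.0 in *Bmal1*-/- skin. Their part in the lower values was not tested.

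Of the procollagen N-propeptidases, which remove the amino-terminal propeptide of fibrillar collagens, *Adamts3* and *Adamts14* were measured, and neither passed. *Adamts2*, also of this group, was not measured. *Adamts14* had 327, 279.6 and 284 in *Bmal1*+/- and 293, 309 and 252 in *Bmal1*-/- mice, with a log2 fold change of -0.060 (95% interval -0.28 to 0.16). *Adamts3* had 272, 266 and 293 in *Bmal1*+/- and 275, 297 and 302 in *Bmal1*-/- mice, with a log2 fold change of 0.069 (95% interval -0.11 to 0.24). Both genes had overlapping genotypes.

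None of the 9 other ADAMTS enzymes passed, and their log2 fold changes ran from -0.13 for *Adamts19* to 0.16 for *Adamts16*. *Adamts13*, which cleaves von Willebrand factor, had 97.5, 93.6 and 120.6 in *Bmal1*+/- and 115, 115 and 121 in *Bmal1*-/- mice, with a log2 fold change of 0.15 (95% interval -0.091 to 0.40, adjusted p = 0.72 from limma). *Adamts16* had 93.5, 85.2 and 124 in *Bmal1*+/- and 104, 127 and 111 in *Bmal1*-/- mice, with a 95% interval of -0.14 to 0.47. For both genes *Bmal1*+/- replicate 3 was among the *Bmal1*-/- values. *Adamts7* and *Adamts12*, which cleave cartilage oligomeric matrix protein, had log2 fold changes of 0.10 and -0.074.

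For 4 genes the array holds more than 1 probe set, 16 for *Adamts3*, 6 for *Adamts9*, 5 for *Adamts17* and 2 for *Adamtsl1*. Probe sets of a gene share its RNA and are no replicates. The 16 of *Adamts3* were split, 6 above 0 and 10 below, from -0.20 to 0.20, and none had an unadjusted p under 0.05. Those of *Adamts9*, a broadly expressed proteoglycanase, lay between -0.14 and 0.049. All 5 of *Adamts17*, an enzyme linked to fibrillin microfibrils, lay below 0, and they disagreed in size. The brightest had a log2 fold change of -0.046 (SE 0.099), and the 2 most negative had -0.37 (probe set 10554063, SE 0.15) and -0.31 (probe set 10554045, SE 0.13), with adjusted p of 0.51 and 0.55 from limma. Probe set 10554063 had 262, 169.5 and 199 in *Bmal1*+/- and 136, 165 and 171 in *Bmal1*-/- mice, so that the genotypes overlapped slightly and the male was highest.

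**Figure D4:**
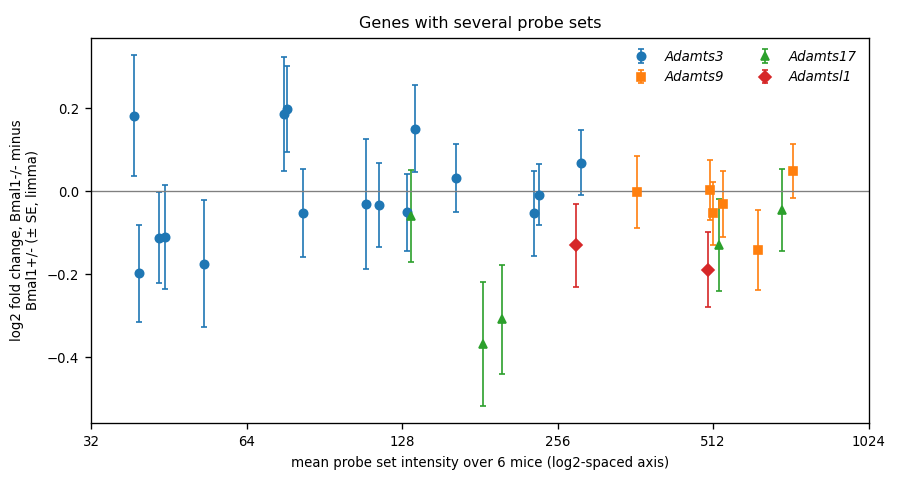
Log2 fold change with its SE (vertical axis, *Bmal1*-/- minus *Bmal1*+/-) against the mean intensity over the 6 mice (horizontal axis, log2-spaced) for each probe set of the 4 genes with more than 1. The 16 of *Adamts3* scatter around 0 between -0.20 and 0.20, while all 5 of *Adamts17* lie below 0, from -0.37 to -0.046.

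The window of *Adamts17*, chr7:66839485-66839784 on the plus strand of GRCm38.p6, is shown because it alone held both an E-box and an E'-box (capitals, in this order, 173 and 140 bases before the start).
Adamts17: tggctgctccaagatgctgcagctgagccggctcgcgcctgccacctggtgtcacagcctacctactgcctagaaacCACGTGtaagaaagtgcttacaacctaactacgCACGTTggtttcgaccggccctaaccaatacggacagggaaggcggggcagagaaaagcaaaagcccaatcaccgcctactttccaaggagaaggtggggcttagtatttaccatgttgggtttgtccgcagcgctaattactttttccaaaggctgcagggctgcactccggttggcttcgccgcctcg

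Among the gelatinases, which degrade denatured collagen and basement membrane, *Mmp9* had higher values in every *Bmal1*-/- mouse and *Mmp2* did not. *Mmp9* had intensities of 243, 274 and 306 in *Bmal1*+/- mice and 306, 366 and 394 in *Bmal1*-/- mice. The genotypes were separated only by the step from 305.6 to 306.1, and the log2 fold change was 0.35 (SE 0.11, 95% interval 0.10 to 0.60, adjusted p = 0.39 from limma). Markers of neutrophils, a cell type rich in MMP9, had summed intensities of 566 to 728 in *Bmal1*+/- and of 639.6 to 676 in *Bmal1*-/- skin, with 5 of 6 genes above 0 and a median log2 fold change of 0.040, and their part in the level of *Mmp9* was not tested. *Mmp2* had 3605, 3259 and 3564 in *Bmal1*+/- and 3166, 3302 and 3504 in *Bmal1*-/- mice, with a log2 fold change of -0.064 (SE 0.063, 95% interval -0.20 to 0.077, adjusted p = 0.80 from limma). The interval of *Mmp2* was among the narrow ones, and its genotypes overlapped.

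The collagenases *Mmp1a*, *Mmp1b*, *Mmp8* and *Mmp13*, which cut triple-helical collagen, gave no member past the test, and 3 of the 4 were dim. *Mmp1a* had intensities of 26.5 to 46.0 and *Mmp1b* of 7.94 to 21.1 over the 6 mice. Their log2 fold changes were 0.091 (95% interval -0.26 to 0.44) and 0.18 (95% interval -0.20 to 0.55). *Mmp8*, the neutrophil collagenase, and *Mmp13* had -0.038 and 0.052.

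Of the stromelysins, matrilysin and metalloelastase none passed, and 4 of the 5 genes were above 0. *Mmp10*, or stromelysin 2, made by migrating keratinocytes, had 86.8, 86.1 and 102 in *Bmal1*+/- and 121, 102 and 102 in *Bmal1*-/- mice. The log2 fold change was 0.21 (SE 0.11, 95% interval -0.038 to 0.45, adjusted p = 0.63 from limma). *Mmp12*, the elastase of macrophages, had the largest SE of the 49 genes. Its intensities were 328, 209.6 and 270.3 in *Bmal1*+/- and 135, 294 and 309 in *Bmal1*-/- mice. *Bmal1*-/- replicate 1 was lowest, and the log2 fold change went from -0.18 (SE 0.27, adjusted p = 0.88 from limma) to 0.17 without it. Markers of macrophages were also lowest in that mouse, with a summed intensity of 6185 against 7292 to 7838 in the other 5, and their part in the level of *Mmp12* was not tested. *Mmp3*, stromelysin 1, had 1111, 749 and 762 in *Bmal1*+/- and 1045, 884 and 703 in *Bmal1*-/- mice, a log2 fold change of 0.011 (95% interval -0.37 to 0.39), with the male highest. *Mmp7* and *Mmp11* had 0.11 and 0.14.

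The collagenases, *Mmp3*, *Mmp7*, *Mmp10*, *Mmp12*, *Mmp20* and *Mmp27* form a run of 10 neighbouring genes on chromosome 9 with no other protein-coding gene inside it. Of the 10, 7 had log2 fold changes above 0 and 3 below, all between -0.18 and 0.21, and the smallest adjusted p was 0.63 from limma. Their 12 promoter windows had a GC content of 37.7% to 52.0%, below the 53.3% to 80.0% of the 25 windows of the other members.

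Of the 5 measured membrane-type MMPs, which act at the cell surface, none passed. *Mmp16* had the most negative value, with intensities of 413, 361 and 400.1 in *Bmal1*+/- mice and 282, 344 and 283 in *Bmal1*-/- mice. All *Bmal1*-/- values were below all *Bmal1*+/- values, and the log2 fold change was -0.36 (SE 0.095, 95% interval -0.57 to -0.14, adjusted p = 0.28 from limma). *Mmp14*, the main collagenase of the cell surface and the activator of MMP2, had 4174, 2926 and 3871 in *Bmal1*+/- and 3491, 4112 and 4002 in *Bmal1*-/- mice. *Bmal1*+/- replicate 2 was lowest, and the log2 fold change was 0.093 (SE 0.12, 95% interval -0.18 to 0.37, adjusted p = 0.86 from limma), or -0.059 without that mouse. *Mmp17*, *Mmp24* and *Mmp25* had log2 fold changes of -0.051 to 0.089.

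The 6 remaining MMPs were not called either. *Mmp23*, a small enzyme that is tethered to the membrane until it is cleaved, had 359, 339.9 and 332 in *Bmal1*+/- mice and 261, 306 and 249.5 in *Bmal1*-/- mice. These ranges did not overlap, and the log2 fold change was -0.32 (SE 0.090, 95% interval -0.53 to -0.12, adjusted p = 0.30 from limma). *Mmp28*, or epilysin, a product of keratinocytes, had 239, 259 and 242 in *Bmal1*+/- and 292, 267 and 342 in *Bmal1*-/- mice. All *Bmal1*-/- values were above, with replicate 3 highest, and the log2 fold change was 0.26 (SE 0.098, 95% interval 0.043 to 0.48, adjusted p = 0.48 from limma), or 0.17 without *Bmal1*-/- replicate 3. Markers of keratinocytes, with 6 of 6 genes below 0 and a median log2 fold change of -0.11, had summed intensities of 40430.0 to 44620.0 in *Bmal1*+/- and 36950.0 to 42040.0 in *Bmal1*-/- skin, and their part in the level of *Mmp28* was not tested. *Mmp19*, *Mmp20*, *Mmp21* and *Mmp27* had log2 fold changes of -0.19, 0.15, 0.20 and -0.070.

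No TIMP passed the test, and the pair with separated genotypes went opposite ways. *Timp4* had intensities of 311, 379 and 343 in *Bmal1*+/- mice and 420, 381 and 606 in *Bmal1*-/- mice. The separation was narrow, at 379 against 381, and *Bmal1*-/- replicate 3 stood above the rest. The log2 fold change of *Timp4* was 0.40 (SE 0.15, 95% interval 0.063 to 0.75, adjusted p = 0.48 from limma), and 0.21 without *Bmal1*-/- replicate 3. In that mouse the summed markers of fat cells, at 14570.0 against 10700.0 to 12080.0 in the other 5, and of endothelium, at 4666 against 3415 to 3772, were also highest, and their part in the level of *Timp4* was not tested. *Timp3*, which stays bound to the matrix and inhibits ADAMTS4 and ADAMTS5 as well as MMPs, had 2474, 2945 and 3202 in *Bmal1*+/- and 2473, 2399 and 2440.2 in *Bmal1*-/- mice. The male lay at the *Bmal1*-/- level, and the log2 fold change was -0.23 (SE 0.086, 95% interval -0.42 to -0.035, adjusted p = 0.49 from limma). It was -0.33 without the male and -0.15 without *Bmal1*+/- replicate 3. *Timp1*, the inducible inhibitor, had 245, 147 and 151 in *Bmal1*+/- and 184, 202 and 131 in *Bmal1*-/- mice. The male was highest, and the log2 fold change was -0.050 (SE 0.20, 95% interval -0.49 to 0.39), or 0.17 without it. *Timp2*, which helps MMP14 to activate MMP2, had 4356, 3765 and 3944 in *Bmal1*+/- and 3609, 3819 and 4227 in *Bmal1*-/- mice, with a log2 fold change of -0.050 (SE 0.076, 95% interval -0.22 to 0.12). The genotypes of *Timp1* and *Timp2* overlapped.

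Genes that work with these proteases or are cut by them were read from 5 lists, and none of their measured genes passed the test in either direction. Of 12 ADAM sheddases and other inhibitors, 7 were above 0, and the largest values were 0.23 each for *A2m*, the plasma protease inhibitor alpha-2-macroglobulin, and *Papln*, papilin (adjusted p = 0.68 and 0.45 from limma). *Papln* had 298, 285 and 322 in *Bmal1*+/- and 334, 358 and 376 in *Bmal1*-/- mice. Of 7 plasminogen system genes 6 were above 0, with *Plat*, tissue plasminogen activator, at 0.16 and *Plaur*, the urokinase receptor, at -0.11. Of 14 proteoglycans, link proteins and hyaluronan synthases 8 were above 0, with *Has3*, a hyaluronan synthase, at -0.32 (SE 0.12, adjusted p = 0.47 from limma) and *Bgn*, biglycan, at -0.23 (SE 0.074, adjusted p = 0.40). *Vcan* and *Acan*, which encode the ADAMTS substrates versican and aggrecan, had log2 fold changes of -0.076 and 0.11. Of 10 procollagen processing genes 7 were below 0 and 4 of them, *Bmp1*, *Pcolce2*, *Pcsk5* and *Pcsk6*, had an unadjusted p under 0.05, against 4.6% of all probe sets lower by that rule. *Pcolce*, a procollagen C-proteinase enhancer, had the largest change of this list at -0.26 (SE 0.14, adjusted p = 0.63), followed by *Pcsk6*, a proprotein convertase, at -0.22 (SE 0.078, adjusted p = 0.45 from limma). Of 6 cysteine cathepsins 5 were below 0, with *Ctsh* at -0.20 and *Ctsk*, cathepsin K, at -0.19.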

How the data were processed

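The 6 arrays measured dorsal skin RNA of 3 *Bmal1*+/- and 3 *Bmal1*-/- mice, with groups and replicate numbers taken from the sample titles. The authors deposited 1 linear intensity per probe set and array. The submitters' processing notes name PLIER 2.0 and Affymetrix Expression Console 1.1, while how background was corrected, how arrays were normalized and which build was used were not given in the sources used here. Values were analysed as log2(intensity + 16) with no further normalization. The 23410 of 35557 probe sets with a gene symbol were fitted by lmFit of limma 3.58.1 (R 4.3.3), moderated by eBayes with a trend on mean level, and called at an adjusted p under 0.05. Gene symbols came from the platform annotation, and gene order and promoters from RefSeq (GRCm38.p6).

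Members, lists and tests were chosen with earlier results of these data known. The named genes are those past the threshold, those with separated genotypes and an unadjusted p under 0.05, the 2 with the largest change in each role, and 10 fixed genes. Other members stand in ranges or with their log2 fold change, and single probe sets, marker genes, substrates and 3 procollagen processing genes were named after their values were seen. The 18 alternative settings changed the offset (1 or 64), the normalization, the rows tested, a filter at an intensity of 64, the variance model or the test (after Cyber-T, window 101, prior weight 10), added a replicate block or a sex term, or dropped each array in turn. The fit was tested on simulated arrays with known changes. The number of arrays limits the precision. Figures were drawn with matplotlib 3.10.9 in Python 3.11.15.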

Additional observations from a re-analysis of the deposited data

How the results depend on the processing

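*Adamts4* was higher under each of the 18 settings, with log2 fold changes of 0.63 (offset 64) to 0.95. With all 35557 rows tested, without the variance trend and with the replicate block its log2 fold change stayed at 0.84 but the adjusted p was 0.19, 0.10 and 0.11, so that 0 probe sets of the set were called higher. Leaving out 1 array gave 0 to 1 called higher, with log2 fold changes of *Adamts4* of 0.72 to 0.95. The Cyber-T type test called 2 lower, *Adamts20* and *Adamtsl2*, where limma called 0, with 9 lower at an unadjusted p under 0.05. Testing all rows changes the number of tests, and leaving out an array or adding the block changes the residual degrees of freedom. The cause of the differing calls was not tested for any setting. Over all tested probe sets the reported fit called 23 higher and 31 lower, the Cyber-T type test 96 and 177, the fit without the variance trend 11 and 16, that of all rows 15 and 19, and those without 1 array 13 to 23 and 22 to 34. The deviations of same-numbered mice from their group means correlated at 0.078, -0.35 and 0.056. Those of differently numbered mice correlated at -0.26 to 0.26. Deviations from a mean of only 3 mice depend on each other, so these values cannot decide whether the replicate numbers pair littermates. The median over the 74 probe sets was -0.036.

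Of the 26 named genes 19 kept their sign under every setting that kept their probe set, and 7, none of them called, changed it under at least 1. With the sex term *Adamts14* had 0.0077, *Timp1* 0.17 and *Timp2* 0.0086. Leaving out 1 array gave -0.12 to 0.021 for *Adamts14*, -0.17 to 0.17 for *Timp1*, -0.11 to 0.0086 for *Timp2*, -0.092 to 0.12 for *Adamts5*, -0.38 to 0.17 for *Mmp12*, -0.059 to 0.20 for *Mmp14* and -0.062 to 0.21 for *Mmp1a*. Among those that kept their sign, leaving out 1 array gave wide ranges for *Adamts1* (-0.37 to -0.027), *Timp4* (0.21 to 0.54), *Mmp1b* (0.0044 to 0.32) and *Adamts16* (0.064 to 0.30). The ranges were 0.092 to 0.25 for *Adamts13*, -0.29 to -0.13 for *Adamtsl1* and 0.14 to 0.28 for *Mmp10*. They were narrow for *Adamts3* (0.042 to 0.11) and *Mmp2* (-0.11 to -0.030). With 1 male, the sex term and the fit without *Bmal1*+/- replicate 1 give the same log2 fold changes.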

Other observations

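The extreme values of the 49 genes were unevenly spread over the 6 mice. The same count over all genes was not made, so whether this spread is particular to these genes was not tested. *Bmal1*+/- replicate 1, the male, had the highest value of 16 genes and the lowest of 7, among the former *Adamts15*, *Mmp3*, *Mmp12*, *Mmp14*, *Mmp19*, *Timp1* and *Timp2*. *Mmp19* had 603 in this mouse and 423 to 484 in the other 5. *Bmal1*+/- replicate 2 had the highest value of 2 genes and the lowest of 14, and *Bmal1*-/- replicate 1 the highest of 4 and the lowest of 12. The labels give no condition other than sex and the second day label that differs within a genotype.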
